A study of Mus musculus with 11 samples.

Results

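The mature arms of miR-10a and miR-10b were followed through every small RNA library of a mouse series on gametes and 2PN (pronuclear) embryos. They were chosen by name from the count table and comprise mmu-miR-10a-5p, mmu-miR-10a-3p and mmu-miR-10b-5p (written without the species prefix from here on), which are 3 of 2304 listed features. Sperm came from the cauda epididymis of adult C57BL/6 males and was represented by 2 libraries from males with a germ line conditional knockout (cKO) of Dicer, 3 from males with a germ line cKO of Drosha and 2 from wild-type (WT) males. 2PN embryos were made by intracytoplasmic injection of Dicer cKO, Drosha cKO or WT sperm into oocytes, with 1 library each, and WT oocytes from superovulated females gave 1 further library. Per the labels, the knockouts were made with floxed alleles and a Cre line, and all lines were backcrossed to the same background. The labels name neither the Cre driver nor which animals each library came from. The p-values therefore reflect only variation among these libraries, which may be technical.

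miR-10a and miR-10b lie inside the Hox clusters, the arrays of homeobox genes that pattern the body axis, and are transcribed in the same domains as their Hox neighbours. Drosha cuts the hairpin out of the primary transcript in the nucleus, Dicer then removes its loop in the cytoplasm, and one arm is loaded into an Argonaute protein to repress messenger RNAs that match its seed. For miR-10a and miR-10b the 5p arm is the guide, and Hox transcripts are among its known targets. By design, a germ line knockout leaves both enzymes in the somatic cells of the testis and epididymis, which was not checked here.

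The mature sequences, taken from RefSeq on GRCm38.p6, are shown because the 5p arms differ so little that read assignment bears on every value. Capitals mark the seed, bases 2 to 8 from the 5′ end.
miR-10a-5p: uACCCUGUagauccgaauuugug
miR-10b-5p: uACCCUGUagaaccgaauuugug
miR-10a-3p: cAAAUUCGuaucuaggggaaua
The 5p arms were identical at 22 of 23 positions (95.7%), with the single substitution U12A from miR-10a-5p to miR-10b-5p, which lies outside the seed. Among the mature mouse miRNAs of the RefSeq table no others carried this seed. The 3p arm of miR-10a differs from that of miR-10b at 3 positions (A3G, U9A and A10U), the first of them in the seed. The sources used here do not say how reads that fit both 5p arms were counted, so the split between the arms is uncertain.

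The hairpins show how the arms sit to either side of the loop, with the mature arms in capitals.
Mir10a: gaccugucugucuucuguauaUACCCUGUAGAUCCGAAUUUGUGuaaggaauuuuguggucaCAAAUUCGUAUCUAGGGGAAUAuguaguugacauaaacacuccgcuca
Mir10b: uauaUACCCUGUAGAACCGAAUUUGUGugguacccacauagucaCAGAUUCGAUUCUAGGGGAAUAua
Mir10a lies on the plus strand at chr11:96317165-96317274 (GRCm38.p6), within the annotated span of Hoxb3 and 993 bases before Hoxb4. Mir10b lies on the plus strand at chr2:74726070-74726137, where the annotated spans of Hoxd3 and Hoxd4 overlap.

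Listed reads ranged from 12003 to 278890 per library in sperm and from 2951 to 8967 in oocyte and 2PN libraries. Drosha cKO replicates 2 and 3 were the shallowest sperm libraries, with 12003 and 15921 reads. The composition of the sperm libraries moved with genotype. Germ cell marker miRNAs (miR-34b, miR-34c, the miR-449 group and testis miRNAs such as miR-743a-3p) summed to 1.03% and 1.03% of listed reads in Dicer cKO and between 1.72% and 3.17% in Drosha cKO sperm, against 23.0% and 19.7% in WT sperm. Dicer and Drosha transcripts were not measured here, so the knockouts themselves were not checked.

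miR-10a-5p and miR-10b-5p took a much larger share of listed reads in cKO sperm than in WT sperm, and both were called higher in the edgeR test in either knockout. Shares, CPM and edgeR changes are relative to the other listed reads, so a change in absolute amount was not measured. Together the 3 members made up 12.7% and 10.04% of listed reads in Dicer cKO and 11.3%, 9.01% and 5.87% in Drosha cKO sperm, against 1.60% and 1.11% in WT sperm. miR-10a-5p had 9388 and 6491 reads in Dicer cKO and 7169, 652 and 548 in Drosha cKO sperm, against 759 and 1740 in WT sperm. Scaled to listed reads, miR-10a-5p stood at 76332 and 60024 CPM in Dicer cKO and 71027, 54320 and 34420 CPM in Drosha cKO sperm, against 10344 and 6239 CPM in WT sperm. Every cKO library lay above both WT libraries, and Drosha cKO replicate 3 was the lowest of the cKO libraries. Such a separation, with the knockout higher, was found for 46.3% of the 335 tested features in Dicer cKO and 42.1% in Drosha cKO sperm. Among all features miR-10a-5p ranked 1 and 2 in the Dicer cKO libraries and 1, 3 and 4 in the Drosha cKO libraries, against 23 and 30 in the WT libraries.

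**Figure D1:**
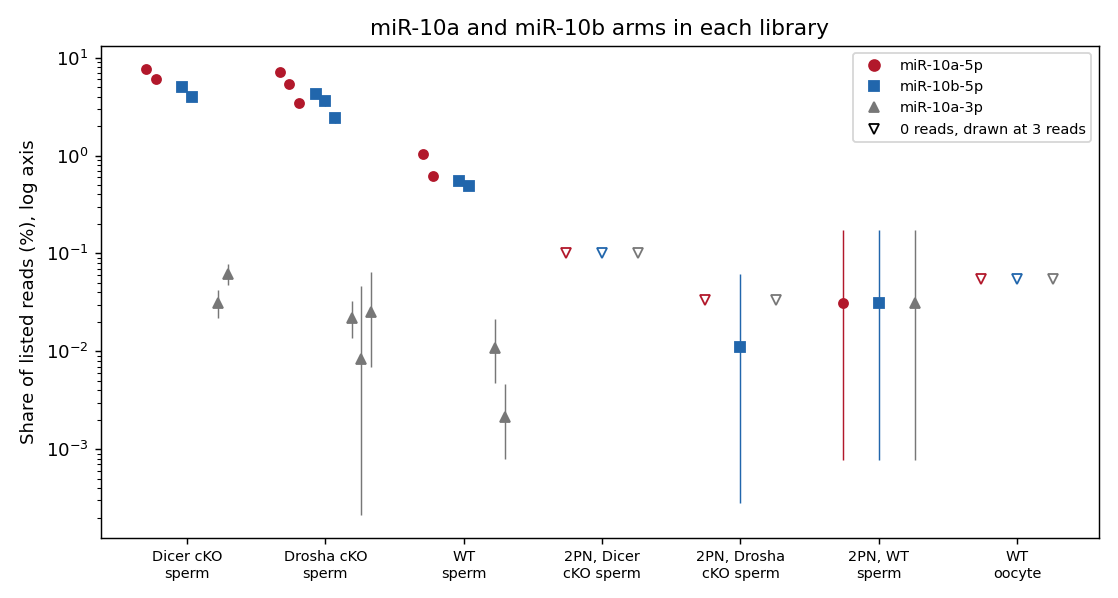
Share of listed reads (%, log axis) of miR-10a-5p, miR-10b-5p and miR-10a-3p in each of the 11 libraries; each point is 1 library, bars are 95% exact binomial intervals and open triangles mark 0 reads, drawn at the share of 3 reads. miR-10a-5p took 3.44% to 7.63% in cKO sperm and 0.624% and 1.03% in WT sperm.

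miR-10b-5p ran in parallel one step lower. It had 6176 and 4295 reads in Dicer cKO and 4249, 428 and 383 in Drosha cKO sperm, against 406 and 1348 in WT sperm. These were 50216 and 39717 CPM in Dicer cKO and 42097, 35658 and 24056 CPM in Drosha cKO sperm, against 5533 and 4833 CPM in WT sperm. The cKO and WT libraries again did not overlap, as for 46.3% (Dicer cKO) and 42.1% (Drosha cKO) of the tested features. The order of the cKO libraries was that of miR-10a-5p. The authors' RPM values, whose divisor exceeds the listed reads, spread the WT libraries further apart and turned their order: miR-10a-5p stood at 3378 and 4209 RPM in Dicer cKO and 1915, 1581 and 727 RPM in Drosha cKO sperm, against 223 and 627 RPM in WT sperm. On that scale Drosha cKO replicate 3 and WT replicate 2 lay close together.

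In Dicer cKO sperm miR-10a-5p changed by 2.43 on the log2 scale relative to WT (SE 0.467, edgeR quasi-likelihood adjusted p = 0.000693, n = 2 and 2) and miR-10b-5p by 2.42 (SE 0.477, edgeR adjusted p = 0.000787). These 2 members were called higher, where 16.1% of the 335 tested features were, 31% were lower and 47.2% were called in either direction (54 higher and 104 lower, or 101 and 91 with library totals alone). Both 5p arms were called in all 18 alternative settings, with changes between 1.86 and 3.36; the largest were those of limma on the authors' RPM. By log2 change they stood at places 28 and 29 of the 335. The third member, miR-10a-3p, was also called, but it entered the test through the cKO libraries and is described on its own. Groups that did not overlap in CPM, with Dicer cKO sperm higher, were found for 46.3% of the tested features.

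In Drosha cKO sperm miR-10a-5p changed by 1.83 relative to WT (SE 0.433, edgeR adjusted p = 0.00267, n = 3 and 2) and miR-10b-5p by 1.77 (SE 0.442, edgeR adjusted p = 0.0036). Both were called higher, where 22.1% of the tested features were, 33.1% were lower and 55.2% were called in either direction (74 higher and 111 lower, 21 and 93 with the authors' divisor, or 134 and 89 with library totals alone). Both calls ended with the authors' divisor, without a low-count filter and with limma on RPM, where miR-10a-5p still changed by 1.73, 1.65 and 1.79 and miR-10b-5p by 1.56, 1.58 and 1.80. They also ended without Dicer cKO replicate 1, with changes of 1.24 and 1.22 (edgeR adjusted p = 0.0576 and 0.0723), where the median of all features stood at −0.54. The call of miR-10b-5p ended as well without Dicer cKO replicate 2 (1.24, edgeR adjusted p = 0.0515) and without WT replicate 1 (1.07, edgeR adjusted p = 0.0848), where that median was −0.45 and −0.40. By log2 change miR-10a-5p and miR-10b-5p stood at places 67 and 71 of the 335 in Drosha cKO sperm. Groups that did not overlap, with Drosha cKO sperm higher, were found for 42.1% of the tested features.

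**Figure D2:**
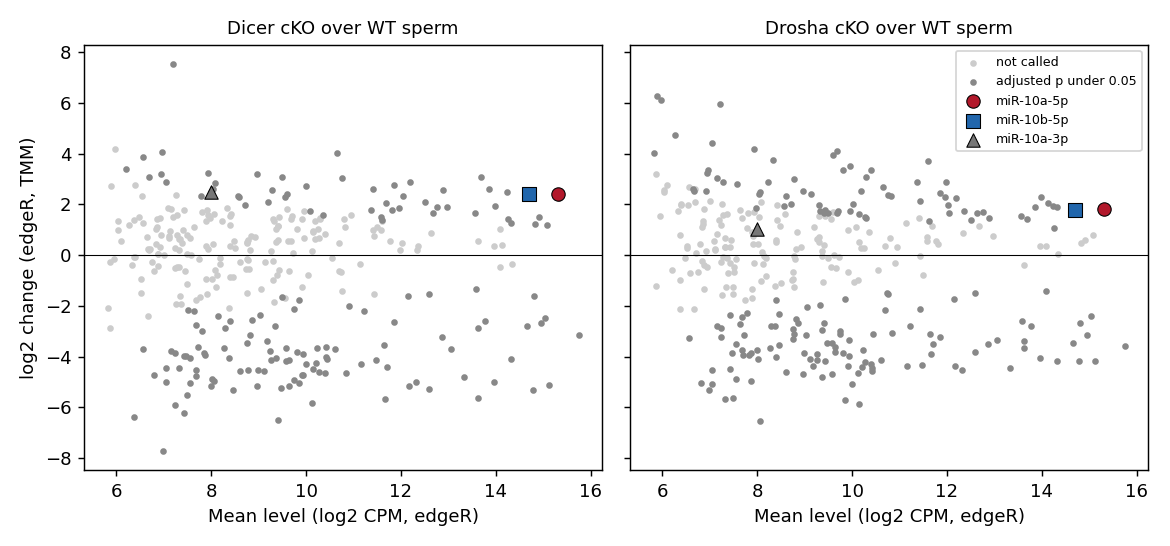
log2 change against mean level (log2 CPM) for the 335 tested features in Dicer cKO over WT sperm and Drosha cKO over WT sperm; dark dots passed an adjusted p of 0.05 and coloured symbols are the members. miR-10a-5p and miR-10b-5p lie among the most abundant features, at 2.43 and 2.42 for Dicer cKO and 1.83 and 1.77 for Drosha cKO.

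The knockouts were set against each other in the same fit. The 5p arms differed by 0.60 (miR-10a-5p, SE 0.40, edgeR adjusted p = 0.413) and 0.65 (miR-10b-5p, SE 0.409, edgeR adjusted p = 0.389) between Dicer cKO and Drosha cKO sperm, and the libraries of the knockouts overlapped. edgeR called 0 of 335 features in this comparison (0%), against 65 (19.4%) at an unadjusted p under 0.05 and 16 (4.78%) by DESeq2. Without WT replicate 1 both 5p arms were called (changes of 1.003 and 1.07, edgeR adjusted p = 0.0467 for each). Both knockouts were compared with the same WT libraries, so their changes relative to WT are not independent.

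miR-10a-3p, the passenger arm, was scarce throughout. It had 38 and 67 reads in Dicer cKO and 22, 1 and 4 in Drosha cKO sperm, against 8 and 6 in WT sperm. In CPM these were 309 and 620 in Dicer cKO and 218, 83.3 and 251 in Drosha cKO sperm, against 109 and 21.5 in WT sperm. The Dicer cKO libraries lay above both WT libraries, as for 46.3% of the tested features, whereas the Drosha cKO libraries overlapped them. The low-count filter asked for about 99.1 CPM in at least 2 libraries, which only 1 WT library reached, so miR-10a-3p entered the test through the cKO libraries.

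The arm changed by 2.48 in Dicer cKO sperm (SE 0.797, edgeR adjusted p = 0.0169). That call ended without WT replicate 2 (1.31, edgeR adjusted p = 0.229), without Dicer cKO replicate 1 or 2 (edgeR adjusted p = 0.0978 and 0.325), without the shallow Drosha cKO libraries and without a low-count filter. In Drosha cKO sperm its change was 1.02 (SE 0.796, edgeR adjusted p = 0.289), and it turned to −0.11 without WT replicate 2. Between the knockouts the change was 1.47 (SE 0.708, edgeR adjusted p = 0.27), and the Dicer cKO libraries lay above the Drosha cKO libraries in CPM, as they did for 15.2% of the tested features.

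Ratios within a library do not depend on its total, and they were used to follow the balance between the members. miR-10a-5p made up 60.3% and 60.2% of miR-10a-5p and miR-10b-5p reads in Dicer cKO and 62.8%, 60.4% and 58.9% in Drosha cKO sperm, against 65.2% and 56.3% in WT sperm. The means were 60.2% ± 0.098 in Dicer cKO sperm (SD, n = 2) and 60.7% ± 1.98 in Drosha cKO sperm (n = 3), against 60.7% ± 6.22 in WT sperm (n = 2). The WT libraries stood to either side of all 5 cKO libraries, and their 95% exact intervals (62.3 to 67.9 and 54.6 to 58.1) did not overlap each other. An exact permutation test over libraries, two-sided, gave p = 1 for Dicer cKO against WT, p = 1 for Drosha cKO against WT and p = 0.8 between the knockouts, all 1 after adjustment over the 3 comparisons. The smallest p these designs allow is 0.333 for Dicer cKO against WT and 0.1 for the other two, so no difference could have passed.

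The 3p arm made up 0.403% and 1.02% of miR-10a reads in Dicer cKO and 0.306%, 0.153% and 0.725% in Drosha cKO sperm, against 1.04% and 0.344% in WT sperm. The ranges of the groups overlapped, and the spread within the Dicer cKO pair and the WT pair took up most of the whole range. The 3p arm of miR-10b, looked up as the missing partner, had at most 2 reads in any library.

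**Figure D3:**
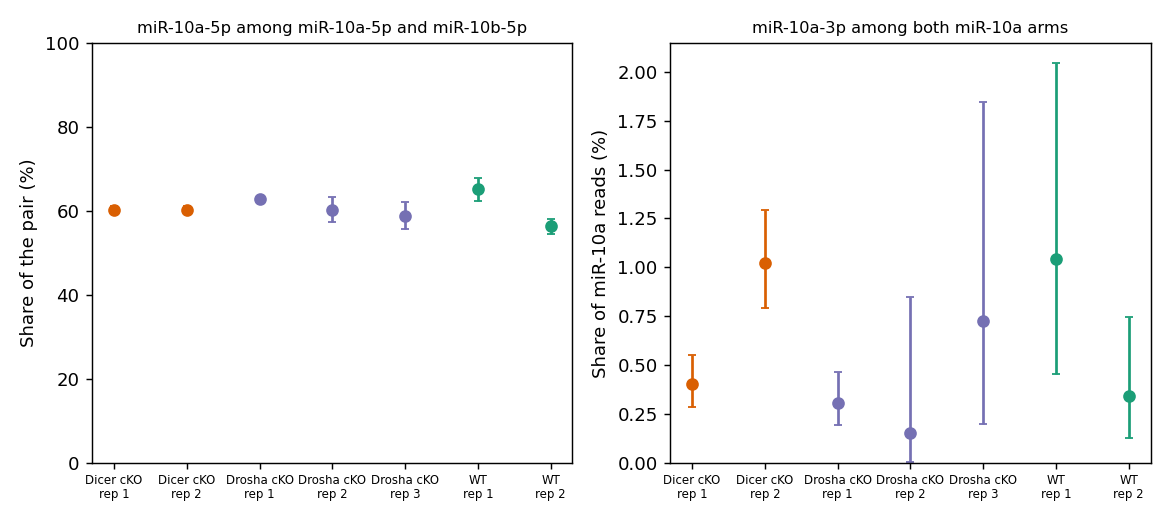
Left, miR-10a-5p as a share (%) of miR-10a-5p and miR-10b-5p reads; right, miR-10a-3p as a share (%) of both miR-10a arms; each point is 1 sperm library and bars are 95% exact binomial intervals, which cover counting error only. The pair's share lies between 56.3% and 65.2% in all 7 libraries.

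The larger share of the 5p arms ran beside a larger share of marker miRNAs of other cell types. The counts below stand against calls over all tested features of 16.1% higher and 31% lower in Dicer cKO sperm and 22.1% higher and 33.1% lower in Drosha cKO sperm. All 6 epithelial markers (the miR-200 and miR-141 group and miR-205-5p) were called higher in either knockout, with median log2 changes of 2.53 in Dicer cKO and 1.87 in Drosha cKO sperm, beside medians of 0.03 and 0.05 over all tested features. They summed to 13.6% and 16.3% of listed reads in Dicer cKO and between 11.4% and 14.3% in Drosha cKO sperm, against 1.65% and 1.83% in WT sperm. The red cell markers, led by miR-451a, summed to 4.04% and 3.84% in Dicer cKO and between 1.72% and 2.02% in Drosha cKO sperm, against 0.379% and 0.256% in WT sperm. All 3 of them were called higher in Dicer cKO and 2 in Drosha cKO sperm. No marker of the epithelial, red cell, leukocyte or stromal lists was at 0 in all sperm libraries.

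Leukocyte markers, led by miR-142-3p, summed to 1.12% and 1.32% in Dicer cKO and between 0.434% and 0.558% in Drosha cKO sperm, against 0.164% and 0.272% in WT sperm. Of these 5 markers, 2 were called higher in Dicer cKO sperm; in Drosha cKO sperm 2 were called higher and 1 lower. Stromal and smooth muscle markers, led by miR-145a-5p, summed to 2.61% and 1.87% in Dicer cKO and between 1.08% and 1.69% in Drosha cKO sperm, against 0.795% and 0.315% in WT sperm. Of these 5, 2 were called higher in Dicer cKO and 0 in Drosha cKO sperm. All 13 tested germ cell markers, led by miR-34b-5p, were called lower in either knockout. The part of somatic cells in the change of the 5p arms was not tested, and in bulk libraries fewer cells of a type and less RNA per cell cannot be told apart.

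Set against the epithelial markers of the same library, miR-10 reads did not separate the genotypes. The 3 members had 0.933 and 0.614 reads per epithelial marker read in Dicer cKO and between 0.514 and 0.959 in Drosha cKO sperm, against 0.969 and 0.605 in WT sperm. Against miR-200c-3p alone, the most abundant epithelial marker, miR-10a-5p had 1.22 and 0.93 reads per read in Dicer cKO and 1.07, 0.909 and 0.732 in Drosha cKO sperm, against 1.22 and 0.78 in WT sperm. All groups overlapped in both ratios. The epithelial ratio went with the replicate number: in Dicer cKO, Drosha cKO and WT sperm it was 0.933, 0.959 and 0.969 in the libraries numbered 1 and 0.614, 0.63 and 0.605 in those numbered 2, and it was 0.514 in Drosha cKO replicate 3. Within each group the ratio to leukocyte markers was also higher in library 1 than in library 2. The ratio to stromal markers was lower in library 1. Neither order held in all groups for the red cell and germ cell ratios. The labels do not say what the numbers stand for, and how many other features follow them in such ratios was not counted. Against the red cell markers the ratio was 3.14 and 2.61 in Dicer cKO and 6.21, 5.25 and 2.91 in Drosha cKO sperm, against 4.22 and 4.34 in WT sperm. Dicer cKO sperm lay below WT, while Drosha cKO replicates 1 and 2 lay above it and replicate 3 below. Against the germ cell markers it was 12.3 and 9.76 in Dicer cKO and between 2.36 and 5.22 in Drosha cKO sperm, against 0.0694 and 0.0563 in WT sperm, with no overlap between cKO and WT libraries. That separation follows from the shares already given, where the members were higher and the germ cell markers lower in cKO sperm. The ratio to stromal markers was 4.86 and 5.36 in Dicer cKO sperm and 4.23 or more in Drosha cKO sperm, against 2.01 and 3.52 in WT sperm, again without overlap. The ratio to leukocyte markers was 11.3 and 7.61 in Dicer cKO and 26.1, 16.1 and 10.9 in Drosha cKO sperm, against 9.78 and 4.08 in WT sperm, so that Drosha cKO sperm lay above WT and Dicer cKO sperm overlapped it. How many of the tested features separate the groups in such ratios was not counted, so these separations are not particular to the members.

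**Figure D4:**
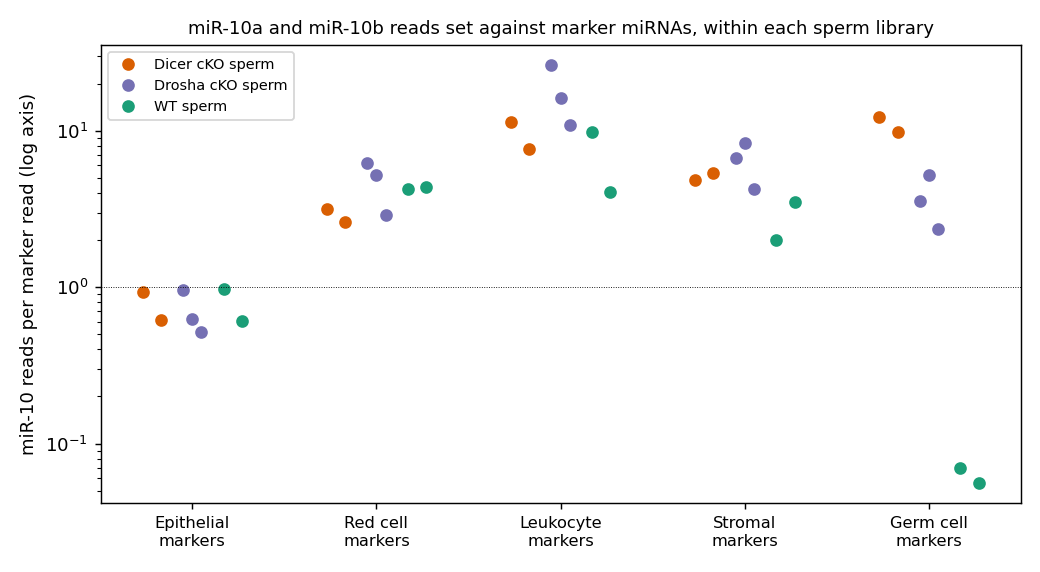
Reads of the 3 members per read of each marker list (log axis) within each of the 7 sperm libraries; each point is 1 library and the dotted line marks equal reads. The ratio to epithelial markers lies between 0.514 and 0.969 in every group, and the ratio to germ cell markers is 2.36 or more in cKO sperm and 0.0694 or less in WT sperm.

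The miRNAs whose profile over the 7 sperm libraries was most like that of miR-10a-5p were sought among 102 others that were tested and averaged at least 1000 CPM. Likeness was the root mean square difference of log2(CPM + 10) after centring each profile. miR-10b-5p was closest, at 0.157, followed by miR-200c-3p at 0.27, miR-223-3p at 0.315, miR-31-3p at 0.426 and miR-205-5p at 0.452, where the median over all 102 was 1.08. For miR-10b-5p the closest were miR-10a-5p at 0.157, miR-200c-3p at 0.179, miR-223-3p at 0.311, miR-221-3p at 0.37 and miR-34a-5p at 0.381, with a median of 1.03. With TMM-scaled CPM or a pseudocount of 1, miR-34a-5p took the place of miR-205-5p among the 5 nearest to miR-10a-5p. Of these, miR-200c-3p and miR-205-5p are on the epithelial list and miR-223-3p is on the leukocyte list. The others named, miR-31-3p, miR-221-3p and miR-34a-5p, are on no marker list. The leukocyte markers did not move together in Drosha cKO sperm, where 2 of 5 were called higher, 1 lower and 2 not called. Of all tested features 22.1% were called higher there and 33.1% lower. The profiles share libraries and depth, so these distances describe likeness in these libraries alone. How reads that fit both 5p arms were counted is not known, so the likeness of the 5p arms to each other is uncertain.

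Other miRNAs of the Hox clusters were scarce. The list held 11 arms from miR-10a, miR-10b, miR-196a, miR-196b and miR-615, of which 5 were tested: the 3 members, miR-196a-5p and miR-196b-5p. miR-196a-5p and miR-196b-5p had at most 38 reads in any library, and they are singled out here after their values were seen. miR-196b-5p had 26 and 29 reads in Dicer cKO and 15, 0 and 2 in Drosha cKO sperm, against 4 and 22 in WT sperm, and miR-196a-5p had 17 and 13 in Dicer cKO and 38, 1 and 0 in Drosha cKO sperm, against 2 and 23 in WT sperm. In CPM miR-196b-5p stood at 211 and 268 in Dicer cKO and 149, 0 and 126 in Drosha cKO sperm. In WT sperm it stood at 54.5 and 78.9. The values of miR-196a-5p were 138 and 120 CPM in Dicer cKO and 376, 83.3 and 0 CPM in Drosha cKO sperm. In WT sperm they were 27.3 and 82.5 CPM. For both arms the Drosha cKO libraries overlapped WT. Their Dicer cKO libraries lay above both WT libraries, as for 46.3% of the tested features. The changes of these arms in Dicer cKO sperm were 0.98 for miR-196b-5p and 0.22 for miR-196a-5p (edgeR adjusted p = 0.338 and 0.863). Neither arm passed in Drosha cKO sperm. The Hox cluster calls were thus those of both 5p arms in either knockout and, in Dicer cKO sperm, that of miR-10a-3p, with the limits given above.

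The miR-99 and miR-100 family is related to miR-10 by sequence but carries another seed. A shared run with miR-10a-5p is displaced by 1 base, as the miR-100-5p sequence shows.
miR-100-5p: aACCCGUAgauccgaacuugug
miR-99a-5p: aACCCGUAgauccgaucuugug
Of 6 arms in this list 3 were tested, and miR-99a-5p was called higher in Dicer cKO sperm (1.66, SE 0.627, edgeR adjusted p = 0.0394), while none was called in Drosha cKO sperm. miR-99a-5p had 1434 and 906 reads in Dicer cKO and 1376, 60 and 90 in Drosha cKO sperm, against 289 and 232 in WT sperm. In CPM these were 11660 and 8378 in Dicer cKO and 13633, 4999 and 5653 in Drosha cKO sperm. The WT libraries stood at 3939 and 832 CPM. Every cKO library thus lay above both WT libraries, as for 46.3% (Dicer cKO) and 42.1% (Drosha cKO) of the tested features. The relatives of miR-99a-5p were scarcer: miR-100-5p had 97 and 72 reads in Dicer cKO and 199, 4 and 3 in Drosha cKO sperm, against 19 and 32 in WT sperm, and miR-99b-5p had at most 87 reads in any library. In CPM miR-100-5p stood at 789 and 666 in Dicer cKO and 1972, 333 and 188 in Drosha cKO sperm. Its WT libraries stood at 259 and 115 CPM. Neither miR-100-5p nor miR-99b-5p passed the edgeR test, with changes of 1.41 and 1.54 for miR-100-5p (adjusted p = 0.194 in Dicer cKO and 0.126 in Drosha cKO sperm) and 0.71 and 0.32 for miR-99b-5p (adjusted p = 0.434 and 0.711). The whole list held 1.31% and 0.97% of listed reads in Dicer cKO and between 0.558% and 1.65% in Drosha cKO sperm, against 0.462% and 0.111% in WT sperm.

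**Figure D5:**
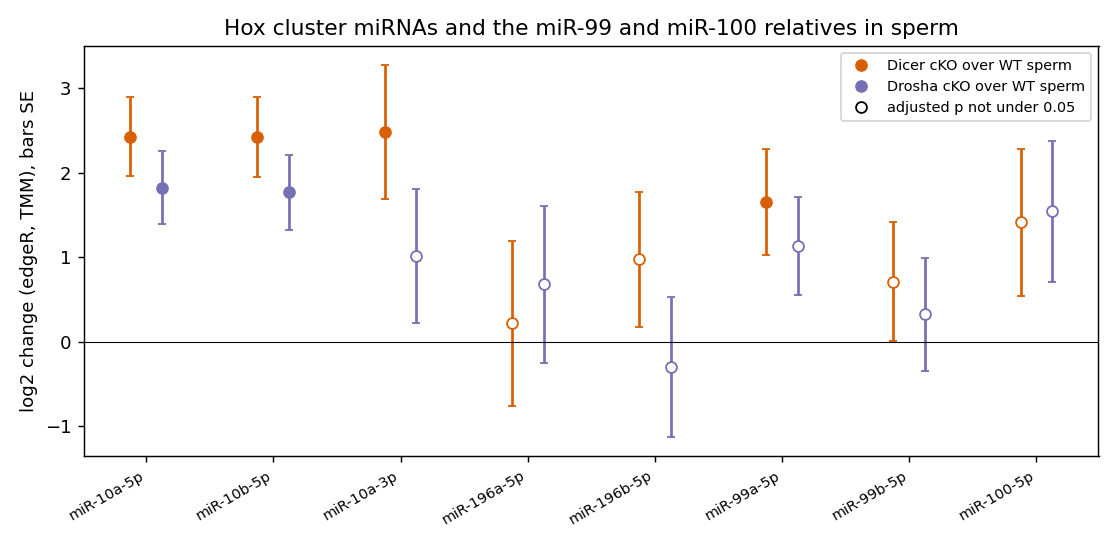
log2 change (edgeR, bars SE) of the tested Hox cluster miRNAs and of the miR-99 and miR-100 family in Dicer cKO and Drosha cKO over WT sperm; filled points passed an adjusted p of 0.05. The filled points are the 3 members and miR-99a-5p for Dicer cKO, and miR-10a-5p and miR-10b-5p for Drosha cKO. miR-10a-3p entered the test through the cKO libraries.

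In oocytes and 2PN embryos the members were almost undetected. Names may differ between these libraries and sperm: reads were listed for miR-292-3p, with 14 in sperm and 0 elsewhere, and for miR-292a-3p, with 0 in sperm and 133 elsewhere. Each member was listed under the same name in sperm and in the 2PN library from WT sperm. The oocyte library and the 2PN library from Dicer cKO sperm held 0 reads of any member, the 2PN library from Drosha cKO sperm held 1 read of miR-10b-5p, and that from WT sperm held 1 read of each member. Those 4 reads came from 20691 listed reads summed over these unlike libraries, where the shares of WT sperm would give 331 and 230 reads. The 2PN library from WT sperm held most of them, at 0.0925% of its own listed reads (95% exact interval 0.0191 to 0.270). miR-10a-5p had 0 of 2951 reads in the 2PN library from Dicer cKO sperm, where the 95% exact upper limit was 0.125%. It had 0 of 8967 in that from Drosha cKO sperm (upper limit 0.0411%) and 0 of 5530 in the oocyte library (upper limit 0.0667%). Intervals and limits cover counting error only.

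With the floor of 3 reads per library, and against the lower of the WT sperm libraries, miR-10a-5p was at least 6.14-fold lower in the 2PN library from Dicer cKO sperm, at least 18.6-fold lower in that from Drosha cKO sperm and at least 11.5-fold lower in the oocyte library. miR-10b-5p was at least 4.75-fold lower in the 2PN library from Dicer cKO sperm and at least 8.91-fold lower in the oocyte library. These bounds rest on the floor, which lies under the exact upper limits above, and leave out counting error in WT sperm. For libraries with 1 read the ratio and its counting interval are given. For the 2PN library from Drosha cKO sperm the ratio of WT sperm to that library in miR-10b-5p was 49.6 for replicate 1 (8.85 to 1964) and 43.3 for replicate 2 (7.77 to 1713). For the 2PN library from WT sperm the same ratio in miR-10a-5p was 33.5 for replicate 1 (95% counting interval 6.00 to 1327) and 20.2 for replicate 2 (3.63 to 800), and in miR-10b-5p it was 17.9 (3.20 to 710) and 15.7 (2.81 to 620). The shares of miR-10a-3p in WT sperm would give less than 1 read in each of these libraries, so a lower level there was not detectable at this depth. For its 1 read in the 2PN library from WT sperm the ratio was 0.354 for replicate 1 (0.0474 to 15.7) and 0.0698 for replicate 2 (0.00846 to 3.21). The 2PN libraries were all at or under the floor, so a difference between embryos from cKO and WT sperm was not detectable at this depth. Epithelial markers were also scarce there, with 0 reads in the 2PN library from Dicer cKO sperm, 4 in that from Drosha cKO sperm, 1 in that from WT sperm and 3 in the oocyte library.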

How the data were processed

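The authors deposited raw read counts per mature miRNA and endo-siRNA, and a table of RPM values made from them; both cover 11 libraries. RPM was found to be the deposited count divided by 1 whole number per library, of unstated meaning. Bowtie and mm10 are named in the submitters' processing notes. The sources used here do not give the counting rule or miRNA release. As a share of that divisor, listed reads were 2.11% to 10.1% for sperm and 0.196% to 0.737% for the other libraries.

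The 7 sperm libraries were fitted together on counts with edgeR 4.0.16 in R 4.3.3 (TMM factors, default expression filter, quasi-likelihood test, two-sided, Benjamini-Hochberg over 335 features, threshold 0.05). SE was the log2 change divided by the square root of F. The fit was tested on simulated data. CPM uses listed reads. Groups of 1 library have no test; a floor of 3 reads and 95% exact (Clopper-Pearson) intervals are given. Alternatives were DESeq2 1.42.0, limma 3.58.1 on log2(RPM + 1), other scalings, filters and sample sets, and each library left out. Named miRNAs were the members, Hox cluster arms with 50 reads in 1 library or a call, the miR-99 and miR-100 5p arms, the 5 profiles most like each 5p arm and the most abundant marker of each list. Early embryo markers (the miR-290 to miR-295 cluster, led by miR-293-3p) summed to 0.339% to 4.04% of listed reads in the oocyte and embryo libraries and 0.0504% or less in sperm; 6 of the 7 listed are in the file, and miR-292a-3p has no sperm read under that name. The members and lists were chosen with earlier results of these data known.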

Additional observations from a re-analysis of the deposited data

How the results depend on the processing

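Both 5p arms kept their direction in all settings and all 3 comparisons. The third member, miR-10a-3p, entered the test through the cKO libraries, so the member counts below that include it carry this limit. Against WT, 3 members were called for Dicer cKO (miR-10a-3p in 13 of 18 alternatives) and 2 for Drosha cKO; the Drosha count was 0 with the authors' divisor, without a low-count filter and with limma on RPM, and 0 to 2 with 1 library left out. Of all features, 185 were called for Drosha cKO, 114 with the authors' divisor and 112 without the filter. Between the knockouts, where 0 were called, the count was 11 with library totals alone, 1 with the authors' divisor, 1 without the filter, 4 with at least 10 CPM in 2 libraries, 31 with only the compared groups, 16 with DESeq2, 2 with limma and 0 to 36 with 1 library left out; of the members, 0 to 2 were then called. The change of miR-10a-3p in Drosha cKO sperm reversed to −0.11 without WT replicate 2 and was at most 1.47 with 1 library left out. Where that leaves a group with a lone library, it is assumed to vary like the rest. The cause of these shifts was not tested. Library totals alone moved the median of all tested features to 0.60 for Dicer cKO and 1.04 for Drosha cKO, against which the 5p arms stood at 3.03 and 3.11, and 2.69 and 2.72; the authors' divisor moved it to 0.88 for Dicer cKO. The higher and lower calls were 61 and 63 for Dicer cKO and 31 and 96 for Drosha cKO with limma, 96 and 102 for Dicer cKO with only the compared groups, and 14 and 98 for Drosha cKO without the filter. With the replicate block, 175, 184 and 8 features were called for Dicer cKO against WT, Drosha cKO against WT and between the knockouts. Of the members, 3, 2 and 0 were called. The labels give no shared source for equal numbers. Same-numbered libraries' deviations from their group means correlated at 0.129 to 0.294 across features. In groups of 2 libraries such deviations mirror each other, so these correlations are not independent. Dicer cKO and WT libraries of unequal number stood at −0.294.

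On the RPM scale the bounds for miR-10a-5p against WT sperm became 112-fold and 90.4-fold lower in 2PN libraries from Dicer cKO and Drosha cKO sperm and 84.1-fold in oocytes; for miR-10b-5p they became 59.8-fold and 44.97-fold in the 2PN library from Dicer cKO sperm and in oocytes. The listed reads of these libraries are the limit on depth: with 0 reads, none allowed a limit under 0.0335% of listed reads.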
